A study of Homo sapiens with 12 samples.

Results

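Proteasome genes were read from the deposited gene table by symbol. A gene was a member when it was protein-coding and its symbol began with PSMA, PSMB, PSMC, PSMD, PSME, PSMF or PSMG. PSMB8 and PSMB9 were left out. The annotation held 47 such genes and 46 of them had a row among the 20595 rows of the table, with PSMB11 not analysed here. By name, 45 of the 46 are subunits, activators, an inhibitor or assembly factors of the proteasome. The remaining one, PSMC3IP, is a recombination cofactor named for its interaction with PSMC3, and it was kept apart from the sums below.

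The samples were A549 and H1792, established human lung adenocarcinoma lines with MDM2 amplification, grown for 48 h with DMSO or with 1 μM RG7112. RG7112 is a small-molecule MDM2 inhibitor, which keeps MDM2 from holding p53. A549 was labelled p53 WT and H1792 p53 mutant, and each line and treatment had 3 replicates, which made 12 samples of poly-A RNA. With a single line for each p53 state, the line and its p53 state cannot be told apart, and no source says whether replicates were separate cultures, so p-values measure only the spread between these samples.

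The proteasome is the protease that degrades most ubiquitin-tagged proteins in the cell. Its core particle is a stack of rings of alpha subunits (PSMA), which gate the entry, and beta subunits (PSMB), some of which carry the proteolytic sites. The regulatory particle binds ubiquitin chains with its base (PSMC ATPases and PSMD scaffolds), removes them with its lid (other PSMD subunits) and feeds the unfolded protein into the core. Cells are known to raise the genes of all these parts together through the transcription factor NFE2L1 when proteasome activity falls short, which is why the subunits are often read as a coordinated group.

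The totals per sample ran from 2011916 to 6218825 estimated counts with a median of 3928092. At this depth, 3 counts stood for 0.465 to 1.43 CPM (the count divided by the TMM-adjusted library size), and these floors cover counting error only. The p53 target CDKN1A was at 45.0, 42.5 and 24.2 CPM in A549 with DMSO and at 203, 189.7 and 942 CPM with RG7112. In H1792 its range was 2.54 to 14.4 CPM without the drug and 3.73 to 10.1 CPM with it. The A549 samples numbered 3 stood apart from the other A549 samples for many proteasome genes. Of 10 epithelial markers, 6 in A549 and 5 in H1792 had a mean of at least 1 CPM, keratins among them, while the lung markers NKX2-1, SFTPB and SFTPC were below 1 CPM in both lines. The mean was also below 1 CPM for EPCAM in A549 and for CDH1 and NAPSA in H1792. Of the 3 leukocyte markers, PTPRC and CD3E were below 1 CPM in every sample, while CD68 was at 10.7 to 35.0 CPM in A549 with DMSO and at 44.3 to 104 CPM with RG7112, and at 7.23 to 18.3 CPM in H1792, and its part in the results was not tested. The 3 endothelial markers had means below 1 CPM in each line, and their sum was at most 1.91 CPM in any sample. The summed fibroblast markers were 1113 to 1426 CPM in H1792, from COL1A1 and COL1A2 with the means of DCN and LUM below 1 CPM, and 1.91 to 8.87 CPM in A549. CPM are relative to the TMM-adjusted size of each library, so fewer cells and less RNA per cell cannot be told apart.

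Of the 46 members, 42 had enough counts to be tested in every comparison. PSMA2 (0 to 7 counts per sample), PSMC2 (0 to 11), PSMB1 (0 to 3) and PSMA8 (0 in every sample) did not. PSMA8 is a testis form of an alpha subunit. The other 3 are parts of the standard proteasome, and genes that all cells use were also low in this table, with EEF1A1 at 639 and RPS18 at 349 counts over the 12 samples against 1347842 for GAPDH. A low value is therefore given as the level in the table and not as a lack of expression. PSME1, PSME2 and PSMC4 each had another row with identical counts, so their reads may be divided between rows. PSMA1, PSMA2, PSMA6, PSMB10 and PSMD9 overlap another annotated gene on the same strand, and the counts given for them may include or lose shared reads.

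Promoter sequence is shown for some members that hold a match to a short element, in capitals, and are named in the comparisons below. The antioxidant response element core, TGACNNNGC, belongs to the type of site that NFE2L1 binds, and the CCAAT box is bound by NF-Y. The windows were RefSeq promoters of GRCh38.p14, each with 250 bases before and 50 bases after a gene start, and they covered 40 of the 46 members. On either strand, TGACNNNGC lay in 14 of 49 member windows (28.6%) and in 13.8% of all 22199 windows, and CCAAT lay in 20 of 49 (40.8%) and in 34.7%. A window that held both was counted under each, and a match is a run of letters, not a bound site. PSME3, PSMB2, PSMB10 and PSMC4, also named below, had no match before the start with 16 bases on either side. PSMG3 had no window. The printed PSME2, PSMG1 and PSMC3IP sites lie upstream of a RefSeq start but inside the GENCODE span of the gene. Each line below gives 5′ to 3′ sequence on the strand of the gene. The capitals mark the match, which reads as its reverse complement where it lies on the opposite strand (PSME4).
PSMB3, chr17:38752621-38752661, plus strand: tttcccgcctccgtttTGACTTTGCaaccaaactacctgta
PSMD12, chr17:67366718-67366758, minus strand: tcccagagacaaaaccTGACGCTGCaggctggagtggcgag
PSMD5, chr9:120843032-120843072, minus strand: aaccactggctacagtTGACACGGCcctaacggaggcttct
PSME2, chr14:24146761-24146801, minus strand: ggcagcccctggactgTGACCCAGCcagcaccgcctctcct
PSME4, chr2:53971003-53971043, minus strand: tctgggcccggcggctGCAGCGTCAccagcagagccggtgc
PSMG1, chr21:39183610-39183650, minus strand: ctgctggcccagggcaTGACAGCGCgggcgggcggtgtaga
PSMC3, chr11:47426533-47426569, minus strand: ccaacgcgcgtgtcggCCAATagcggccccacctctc
PSMC3IP, chr17:42577763-42577799, minus strand: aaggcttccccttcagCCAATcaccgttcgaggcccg

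Levels between genes were compared as CPM per kb of mean coding transcript length, in the DMSO samples. PSMD8, a lid subunit, was highest in both lines, at 873.7 ± 52.2 CPM per kb in A549 and 979 ± 49.6 in H1792 (SD, n = 3). PSMC3, a base ATPase, followed in A549 at 299 ± 52.1, and PSMD2, a base scaffold, at 241 ± 8.93 CPM per kb. In H1792 PSMD2 was above PSMC3, at 715 ± 9.65 against 416 ± 47.4 CPM per kb. With lengths taken from merged exons instead, PSMB5 and PSMD2 stood at 127.8 and 127.4 CPM per kb in A549, and PSMB5 took the place of PSMD2 among the highest 3. The lowest members in both lines were PSMA8, PSMB1 and PSMC2.

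Subunits that are present in equal number in the assembled particle were far from equal in this table. Among the 14 standard core subunits in A549, the level ran from 0.498 CPM per kb for PSMB1 to 223 for PSMB5, with a median of 35.5. Among the 6 base ATPases it ran from 0.508 (PSMC2) to 299 (PSMC3), and among the 8 lid subunits from 4.47 (PSMD12) to 873.7 (PSMD8). The catalytic subunits were also uneven, over a narrower range, with PSMB5 (chymotrypsin-like activity) at 223, PSMB6 (caspase-like) at 8.72 and PSMB7 (trypsin-like) at 2.80 CPM per kb. The order of the members was much alike in both lines, with a Spearman rho of 0.923 over the 46 genes. The genes share transcript lengths and the same counting in both lines, and genes are not independent replicates.

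**Figure D1:**
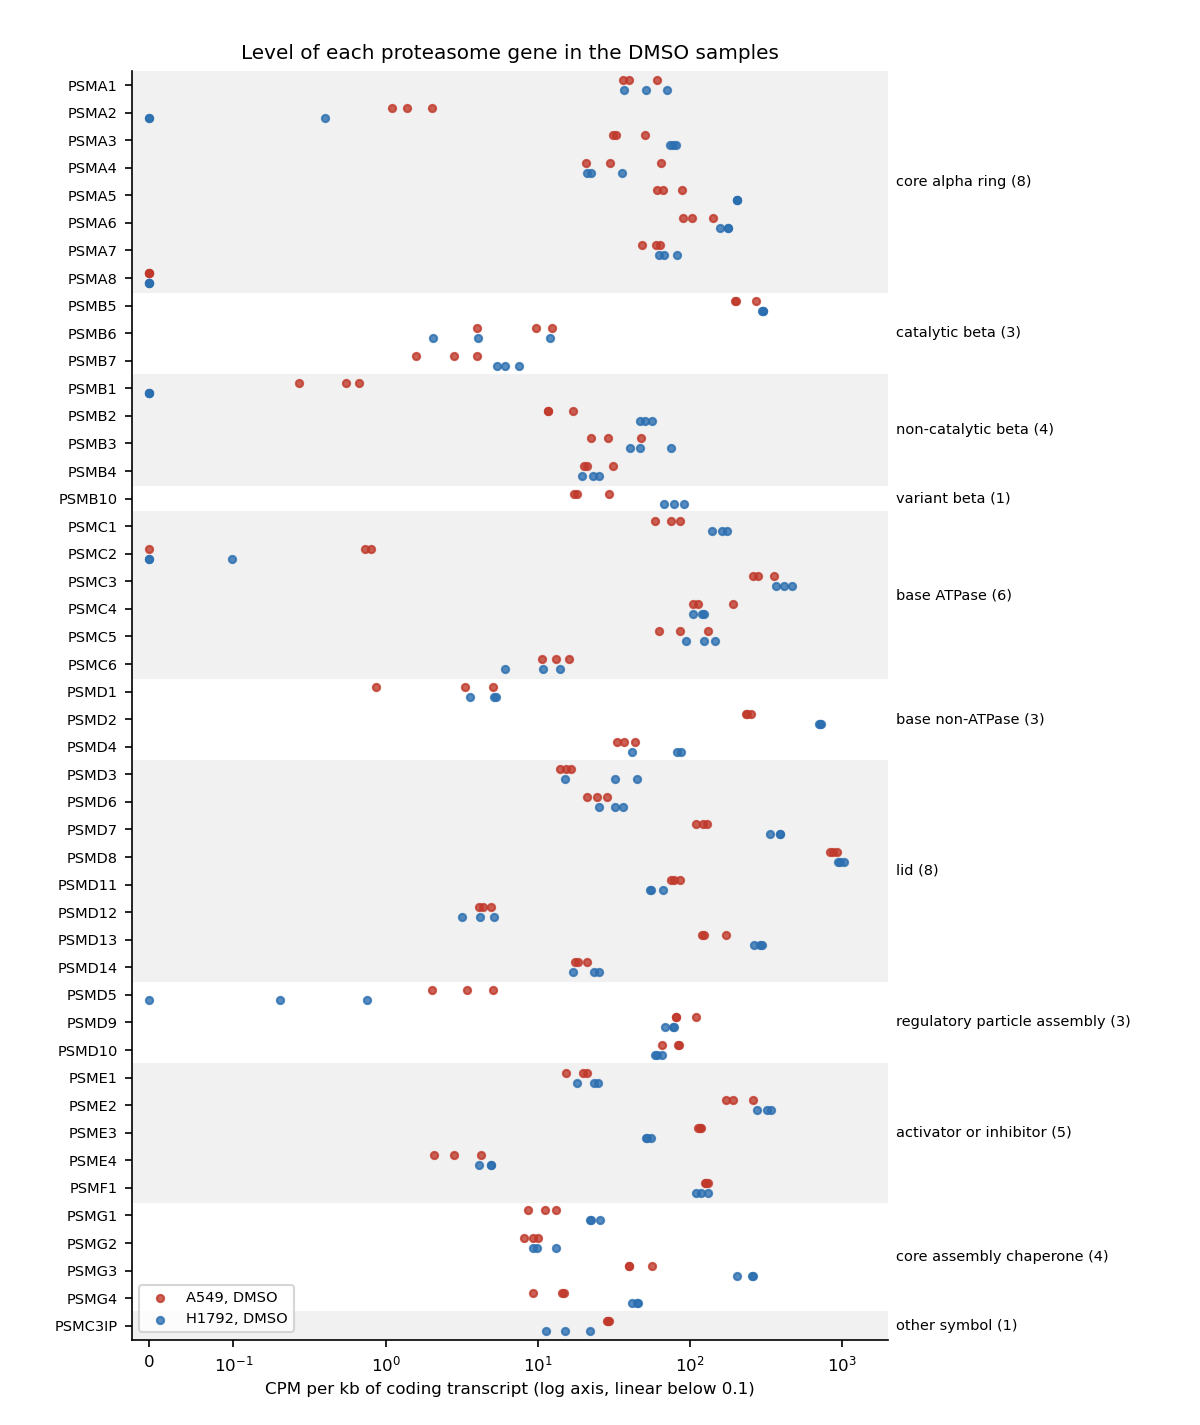
Level of each of the 46 members in the 6 DMSO samples, as CPM per kb of coding transcript on an axis that is logarithmic above 0.1 and linear below; each point is a sample, and members are grouped by role. PSMD8 lies highest in both lines and PSMA8 at 0 in all samples.

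Between the untreated lines, the question was which proteasome genes A549 and H1792 held at different levels before the drug. The summed level of the 45 proteasome genes was 5762 ± 673 CPM in A549 and 9095 ± 426 CPM in H1792 (SD, n = 3), which is 1.58 times higher in H1792. The TMM factors were 0.970 to 1.09 in these A549 samples and 0.838 to 0.902 in these H1792 samples, so this ratio depends on the scaling. PSMD2 alone made up 19.1% of the sum over all samples. In edgeR's quasi-likelihood test, 15 of 42 members (35.7%) were lower in A549 and 3 (7.14%) were higher. Over all genes tested, 22% were lower in A549 and 25.6% higher. With library size alone as the scaling, the split was 11 lower and 7 higher. The median difference of the members was -0.40 (log2, A549 minus H1792) against 0.09 for all genes. The median of the members was -0.61 without A549 DMSO replicate 3 and -0.27 without A549 DMSO replicate 2, so the size of the shift depends on single libraries.

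By summed level, the assembly chaperones of the core particle were the class that differed most, 3.87 times higher in H1792. PSMG3 made up 62.1% of the class sum over all samples, so that ratio rests largely on PSMG3. By the test, 3 of the 4 were lower in A549, beside 22% of all genes tested. PSMG3 was at 42.2, 42.1 and 59.0 CPM in A549 and at 214, 272 and 272 CPM in H1792. Each H1792 sample was thus far above each A549 sample, and the log2 difference was -2.40 ± 0.18 (SE, adjusted p = 1.37e-06). PSMG4 was at 12.5, 19.6 and 20.2 CPM in A549 and at 56.4, 60.2 and 61.5 CPM in H1792 (log2 difference -1.76 ± 0.20, adjusted p = 3.08e-05). PSMG1, which pairs with PSMG2, was also lower in A549, and PSMG2 did not pass the test.

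Of the beta subunits, the structural PSMB2 and the inducible PSMB10 were lower in A549. PSMB2 was at 40.3, 40.6 and 59.0 CPM in A549 and at 162, 194 and 175 CPM in H1792 (log2 difference -1.92 ± 0.27, adjusted p = 0.000168). PSMB10, which takes the place of PSMB7 in the immunoproteasome, was at 20.9, 35.5 and 22.2 CPM in A549 and at 82.5, 96.0 and 111 CPM in H1792 (log2 difference -1.87 ± 0.30, adjusted p = 0.000426). Its partners in that particle, PSMB8 and PSMB9, reached at most 1.36 CPM in any sample and were not tested. No sample of A549 reached the level of an H1792 sample for either gene.

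PSMA5 of the alpha ring (log2 difference -1.51 ± 0.14), PSMD2 of the base (-1.57 ± 0.08) and PSMD7 of the lid (-1.63 ± 0.15) were also lower in A549. The members higher in A549 were PSMD5, PSME3 and PSMD11. PSMD5, a chaperone of base assembly, was at 8.75, 5.97 and 3.49 CPM in A549, while the H1792 samples held 3 counts or fewer (0.352, 0 and 1.31 CPM). Against 3 counts per library in H1792, PSMD5 was at least 5.96-fold higher in A549 (adjusted p = 0.00575). PSME3, the nuclear proteasome activator also called PA28 gamma, was at 285 to 295 CPM in A549 and at 128 to 139 CPM in H1792 (log2 difference 1.14 ± 0.09, adjusted p = 2.18e-06). PSMD11, a lid subunit, was at 239.6 to 273 CPM in A549 and at 174 to 211 CPM in H1792. The calls of PSMA3, PSMA6, PSMC3, PSMD4 and PSMD11 were lost without at least 1 of the 12 samples (highest adjusted p 0.148, for PSMA3), and the other 13 were kept.

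**Figure D2:**
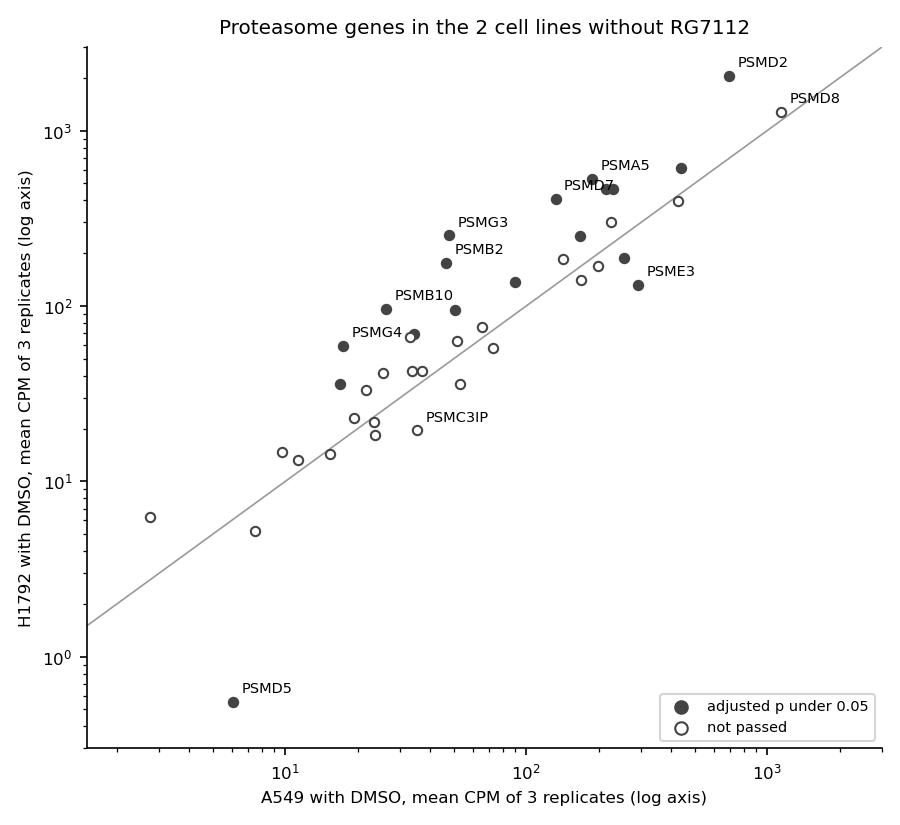
Mean CPM of 3 DMSO replicates in A549 (horizontal) and H1792 (vertical) for the 42 tested members, both axes logarithmic, with the line of equal level; filled points passed the test. PSMG3, PSMB2 and PSMB10 lie above the line and PSME3 and PSMD5 below it.

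In A549, the comparison asked whether proteasome genes respond to MDM2 inhibition in a line with intact p53. PSMC3IP, PSMC3 and PSME3 fell, which is 3 of 42 tested members (7.14%), and none rose. Without PSMC3IP, which is not part of the proteasome, 2 of 41 fell. Of all 10739 genes tested, 4.03% fell and 4.35% rose. By DESeq2 6 members fell and by limma-trend 3, none rose with either, and at an unadjusted p under 0.05 in edgeR 13 were lower and 0 higher. At that unadjusted threshold, 2567 of all 10739 genes were called, in either direction. With an absolute log2 fold change over 1 as well, the rule of the study for DEGs, 1 member fell (PSMC3IP) beside 3.01% of all genes, and none rose beside 3.18%. Although few passed, 32 of 42 members were lower with RG7112, with a median log2 fold change of -0.43 against -0.015 for all genes. Every RG7112 sample was below every DMSO sample for 20 members, or 47.6% of those tested, against 16.3% of all genes. The median of the members was -0.24 without A549 DMSO replicate 3, in which many of them were high.

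PSMC3IP (ENSG00000131470, chr17:42572315-42577831 of GRCh38, minus strand) changed more than any other tested member in A549. It works with recombinases in homologous pairing and is not part of the proteasome. It was at 35.9, 34.6 and 35.4 CPM with DMSO and at 2.79, 5.72 and 1.36 CPM with RG7112. The DMSO replicates lay close together and far above the treated ones, and the log2 fold change was -3.51 ± 0.46 (SE, adjusted p = 0.00558). The call was kept without each A549 sample in turn, with an adjusted p of 0.0073 to 0.0371. PSMC3IP overlaps MLX, which lies on the opposite strand.

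PSMC3, an ATPase of the base, was at 384, 410.4 and 528 CPM with DMSO and at 257, 272 and 298 CPM with RG7112. No treated sample reached an untreated one, and the log2 fold change was -0.68 ± 0.16 (adjusted p = 0.042). PSME3 was at 285, 295 and 294 CPM with DMSO and at 224, 197 and 200.2 CPM with RG7112 (log2 fold change -0.49 ± 0.12, adjusted p = 0.0454). Its samples did not overlap either. Both calls were lost without any 1 of the 6 A549 samples, with adjusted p of 0.0623 to 0.144 for PSMC3 and 0.0702 to 0.168 for PSME3, and the direction stayed.

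All 6 tested alpha subunits, which form the gate of the core, were lower with RG7112 without passing the test, between -0.42 and -0.69. PSMA7 was at 56.9, 43.5 and 54.0 CPM with DMSO and at 23.4, 31.0 and 41.6 CPM with RG7112 (-0.69 ± 0.26, adjusted p = 0.159). The catalytic PSMB5 was at 203, 199.7 and 274 CPM and then at 162, 159 and 114 CPM (-0.64 ± 0.20, adjusted p = 0.0995). Neither gene overlapped between treatments. PSMB6 (-0.52 ± 0.61), PSMB7 (0.53 ± 0.69), PSMB4 (-0.35 ± 0.25) and PSMB10 (0.19 ± 0.34) did not pass. Without both A549 samples numbered 3, PSMB5 was at -0.32 (adjusted p = 0.0592), PSMB6 at -0.26 and PSMB10, with its sign turned, at -0.27. PSMB7 turned to -0.33 without RG7112 replicate 2.

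In the regulatory particle of A549, PSMD11 of the lid was at 239.6, 251 and 273 CPM with DMSO and at 178, 207 and 147 CPM with RG7112 (-0.52 ± 0.16, adjusted p = 0.0928). PSMD2 of the base had a log2 fold change of -0.26 ± 0.11 (adjusted p = 0.193). PSMD5 had -1.15 ± 0.63 (adjusted p = 0.322) at a level of at most 8.75 CPM. PSMG3, a core assembly chaperone, was at 42.2, 42.1 and 59.0 CPM with DMSO and at 26.4, 30.5 and 26.9 CPM with RG7112 (-0.78 ± 0.22, adjusted p = 0.0724). PSMG3 and PSMD11 thus separated the treatments in all samples, though neither passed over all genes. PSME1 (0.09 ± 0.27), PSME2 (0.13 ± 0.18) and PSMF1 (0.02 ± 0.14), the PA28 activator pair and the inhibitor PI31, had fold changes within their standard errors, and the activator PSME4 had 0.33 ± 0.29. Without both samples numbered 3, PSME1 (-0.09) and PSMF1 (-0.10) changed sign, PSME2 was at 0.25, PSME4 at 0.68 and PSMD11 at -0.35, none of them past the test.

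**Figure D3:**
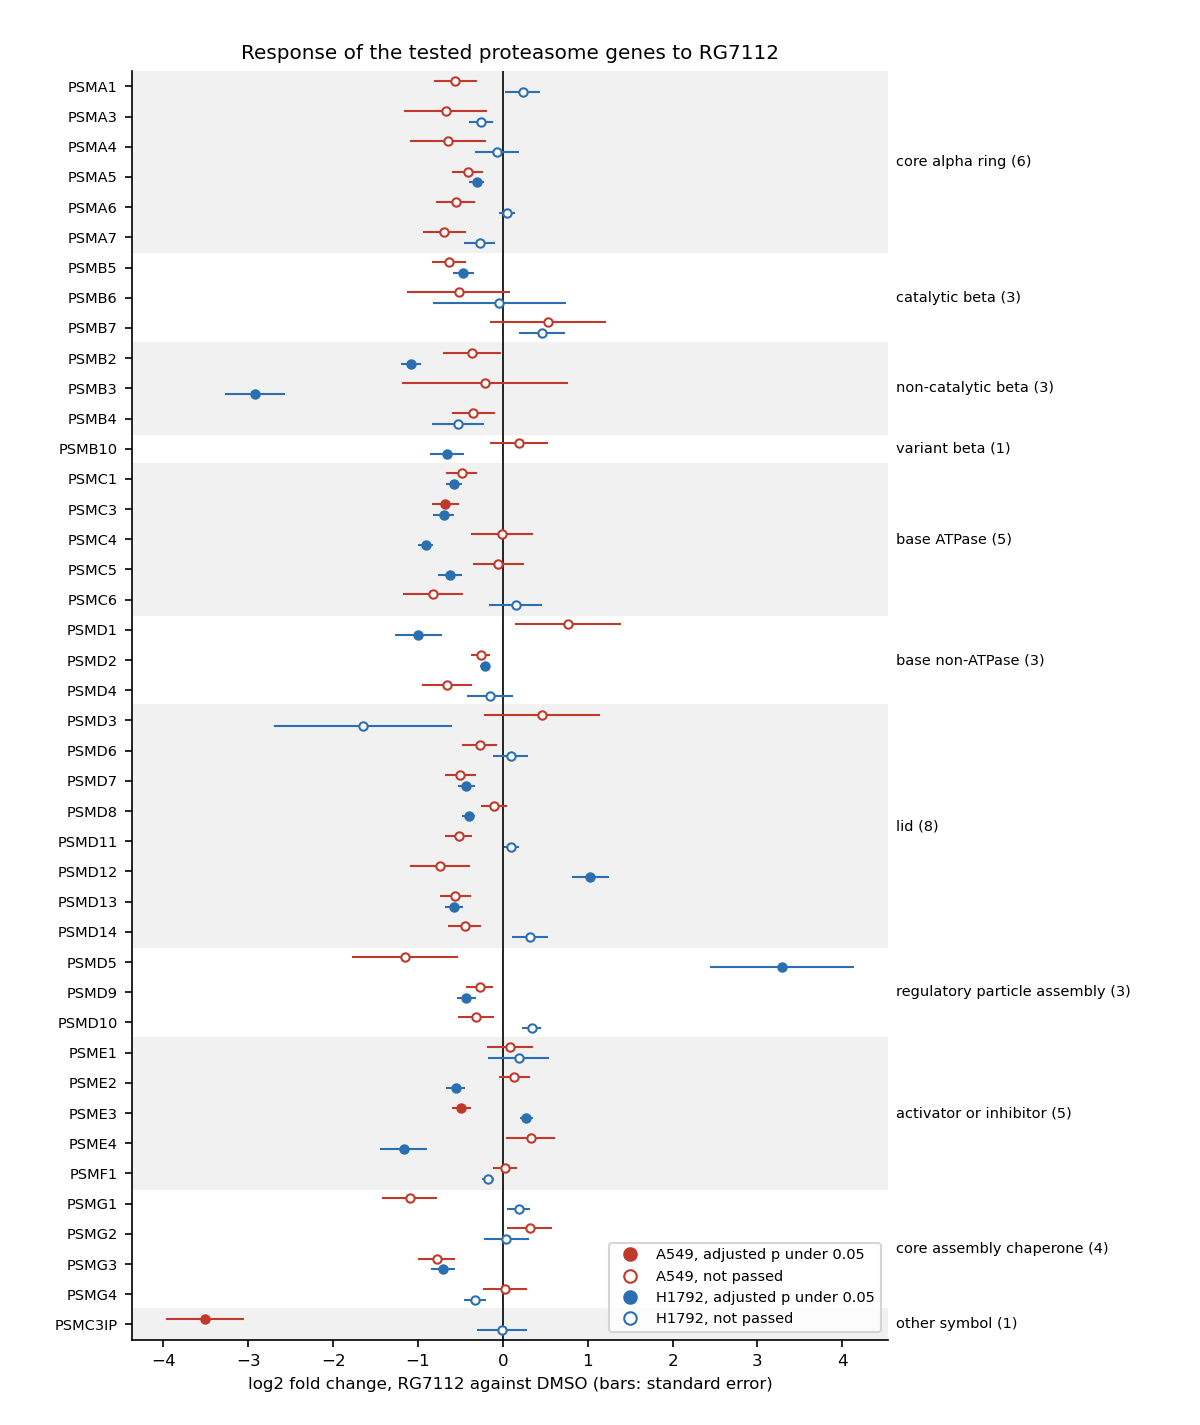
Log2 fold change of RG7112 against DMSO for the 42 tested members in A549 (red) and H1792 (blue), with bars of 1 standard error from edgeR and filled points where the adjusted p was under 0.05. Most points lie left of 0 in both lines, with 3 filled in A549 and 21 in H1792.

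In H1792, which has mutant p53, the same comparison gave 21 of 42 members (50%) that passed. In edgeR 18 members fell (42.9%) and 3 rose (7.14%), against 16.5% of 9914 genes that fell and 17.7% that rose. The median of the members was -0.27 against 0.01 for all genes. With library size alone as the scaling, the median of all genes moved to 0.27 and that of the members to -0.01, and 9 members fell and 6 rose. Every RG7112 sample was below every DMSO sample for 21 members, or 50% of those tested, against 28.4% of all genes. With the fold change rule of the study, PSMB2, PSMB3 and PSME4 fell beside 4.34% of all genes, and PSMD12 and PSMD5 rose beside 10.3%. The summed level of the 45 proteasome genes went from 9095 ± 426 CPM in the DMSO samples to 6749 ± 499 CPM in the treated ones, a ratio of 0.742. In A549 it was 5762 ± 673 and 4739 ± 420 CPM, a ratio of 0.822. These sums depend on the TMM factors, which were 0.838 to 0.902 in H1792 with DMSO and 1.05 to 1.13 with RG7112. In A549 the factors were 0.970 to 1.09 with DMSO and 0.912 to 1.05 with RG7112. Sums scaled by library size alone were not computed, so the ratios of the lines are not ranked.

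The H1792 count at an adjusted p under 0.05 changed with the samples in the fit. Without RG7112 replicate 2 it was 8, and without DMSO replicate 2 or RG7112 replicate 3 it was 10. Without DMSO replicate 3 it was 12, without DMSO replicate 1 it was 14 and without RG7112 replicate 1 it was 22. Without both samples numbered 3 no member passed in edgeR (15 at an unadjusted p under 0.05), nor did any of the 10225 genes tested. At an unadjusted p under 0.05, 23 members were called with all 6 samples, beside 4556 of all 9914 genes, and 22 to 25 members without 1 sample. The 8 members that passed without each H1792 sample in turn were PSMB2, PSMB3, PSMC1, PSMC3, PSMC4, PSMD8, PSMD13 and PSME2, all of which fell.

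The beta ring held the largest fall. PSMB3, a beta subunit without a proteolytic site, was at 31.4, 57.7 and 36.2 CPM with DMSO and at 3.36, 7.12 and 4.89 CPM with RG7112. All treated samples were far below all untreated ones, and the log2 fold change was -2.92 ± 0.35 (adjusted p = 0.00344). In A549 the same gene was at 5.42 and 2.86 CPM in RG7112 replicates 1 and 2 and at 57.3 CPM in replicate 3, a coefficient of variation of 140.5%, and the fold change there was -0.21 ± 0.98 (log2). PSMB2 was at 162, 194 and 175 CPM with DMSO and at 88.9, 68.8 and 81.0 CPM with RG7112 in H1792 (-1.08 ± 0.12, adjusted p = 0.00305). PSMB5, the catalytic subunit that proteasome inhibitors such as bortezomib bind, was at 306, 304 and 299 CPM and then at 252, 187 and 187 CPM (-0.47 ± 0.12, adjusted p = 0.0294). The inducible PSMB10 was at 82.5, 96.0 and 111 CPM and then at 73.6, 55.5 and 45.6 CPM (-0.66 ± 0.20, adjusted p = 0.0441). For PSMB5 and PSMB10 the treatments did not overlap, but 5 of the 6 fits without 1 sample lost the call, with adjusted p up to 0.0894 and 0.127. PSMB6 (-0.04 ± 0.78) and PSMB7 (0.46 ± 0.27) did not pass.

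Of the alpha ring only PSMA5 passed, at 534, 535 and 531 CPM with DMSO and at 462, 388 and 379 CPM with RG7112 (-0.31 ± 0.09, adjusted p = 0.0353). Its untreated samples were nearly equal, and the call was lost without any of 5 of the 6 samples (adjusted p up to 0.109). The other 5 tested alpha subunits lay between -0.27 and 0.23.

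The ATPases of the base, which unfold the substrate, fell in 4 of 5 cases, beside 16.5% of all genes tested. PSMC6 (0.15 ± 0.31) was the exception. The GC content of PSMC6 transcripts was 37.5%, against 48.1 to 56.4% for the ATPases that fell, and GC content is taken up below. PSMC4 was at 153, 176 and 180.1 CPM with DMSO and at 86.5, 87.3 and 83.6 CPM with RG7112. The treated samples lay close together and well below the untreated ones (-0.91 ± 0.09, adjusted p = 0.00278). PSMC3 was at 545, 684 and 606 CPM and then at 403, 374 and 298 CPM (-0.70 ± 0.12, adjusted p = 0.00836). PSMC3 was thus the member that fell in both lines. PSMC1 was at 408, 510.5 and 474 CPM and then at 318, 302 and 267 CPM (-0.57 ± 0.10, adjusted p = 0.00715). PSMC5 was at 143, 222 and 189 CPM and then at 115.5, 115 and 111 CPM (-0.62 ± 0.14, adjusted p = 0.0187, and up to 0.0677 without 1 of 4 samples). For both ATPases every treated sample was below every untreated one. PSMD1, a base scaffold, was at 11.3, 16.9 and 16.1 CPM and then at 8.78, 6.05 and 6.29 CPM (-0.99 ± 0.28, adjusted p = 0.0329, and up to 0.111 without 1 of 4 samples). PSMD2, the member with the most counts in every H1792 sample, was at 2067, 2089 and 2034 CPM and then at 1804, 1661 and 1626 CPM, a small fall without overlap (-0.21 ± 0.06, adjusted p = 0.0369, and up to 0.114 without 1 of 5 samples). The ubiquitin receptor PSMD4 was at -0.15 ± 0.27 (adjusted p = 0.705).

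The lid was mixed, with 3 of 8 falling and 1 rising, beside 16.5% and 17.7% of all genes tested. PSMD13 was at 432, 488 and 475 CPM with DMSO and at 338, 293 and 259.6 CPM with RG7112 (-0.575 ± 0.103, adjusted p = 0.00826). PSMD8 was at 1231, 1354 and 1257 CPM and then at 1010, 866.5 and 886 CPM (-0.40 ± 0.07, adjusted p = 0.00874). PSMD7, which pairs with the lid deubiquitinase PSMD14, was at 429, 431 and 370.1 CPM and then at 325, 271 and 271 CPM (-0.43 ± 0.10, adjusted p = 0.017, and up to 0.0592 without 1 of 3 samples). In all 3 the treated samples lay below the untreated ones. PSMD12 moved the other way, from 17.6, 14.3 and 10.9 CPM to 25.1, 30.4 and 27.9 CPM, with every treated sample above every untreated one (1.03 ± 0.22, adjusted p = 0.0142). The call of PSMD12 was lost without DMSO replicate 2 or RG7112 replicate 2 (adjusted p up to 0.0553). PSMD3, another lid subunit, was at 97.2, 32.5 and 69.8 CPM and then at 11.1, 47.5 and 0.698 CPM, a spread too wide for a call (-1.65 ± 1.05, adjusted p = 0.263).

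Of the factors that assemble the base, PSMD9 fell and PSMD5 rose. PSMD9 was at 129, 145 and 148 CPM with DMSO and at 111, 97.5 and 88.9 CPM with RG7112 (-0.43 ± 0.11, adjusted p = 0.0234, and up to 0.0783 without 1 of 4 samples). PSMD5 held 3 counts or fewer in each DMSO sample and was at 3.88, 4.45 and 5.12 CPM with RG7112, at least 4.40-fold higher against 3 counts per library (adjusted p = 0.0259). The call of PSMD5 was lost in 5 of the 6 fits without 1 sample (adjusted p up to 0.0894). PSMG3, which helps to build the alpha ring, was at 214, 272 and 272 CPM and then at 174, 142 and 126 CPM (-0.70 ± 0.14, adjusted p = 0.0122, and 0.0502 without RG7112 replicate 2).

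The activators parted. PSME2 was at 221, 257 and 272 CPM with DMSO and at 175, 165 and 144 CPM with RG7112 (-0.56 ± 0.11, adjusted p = 0.0106), while its partner PSME1 was at 0.18 ± 0.36 (adjusted p = 0.723). PSME4, known as PA200, was at 34.9, 29.3 and 34.9 CPM and then at 19.6, 12.6 and 9.78 CPM (-1.17 ± 0.28, adjusted p = 0.0205, and up to 0.0727 without 1 of 4 samples). PSME3 rose slightly, from 128, 139 and 129.9 CPM to 144, 157 and 156 CPM, without overlap (0.28 ± 0.07, adjusted p = 0.0298, and up to 0.114 without 1 of 5 samples). PSMF1 (-0.17 ± 0.07, adjusted p = 0.11) did not pass. PSMC3IP, the gene that fell most in A549, was at 26.8, 13.8 and 18.3 CPM and then at 21.96, 15.8 and 17.9 CPM in H1792 (-0.01 ± 0.30, adjusted p = 0.984), with the treatments overlapping.

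**Figure D4:**
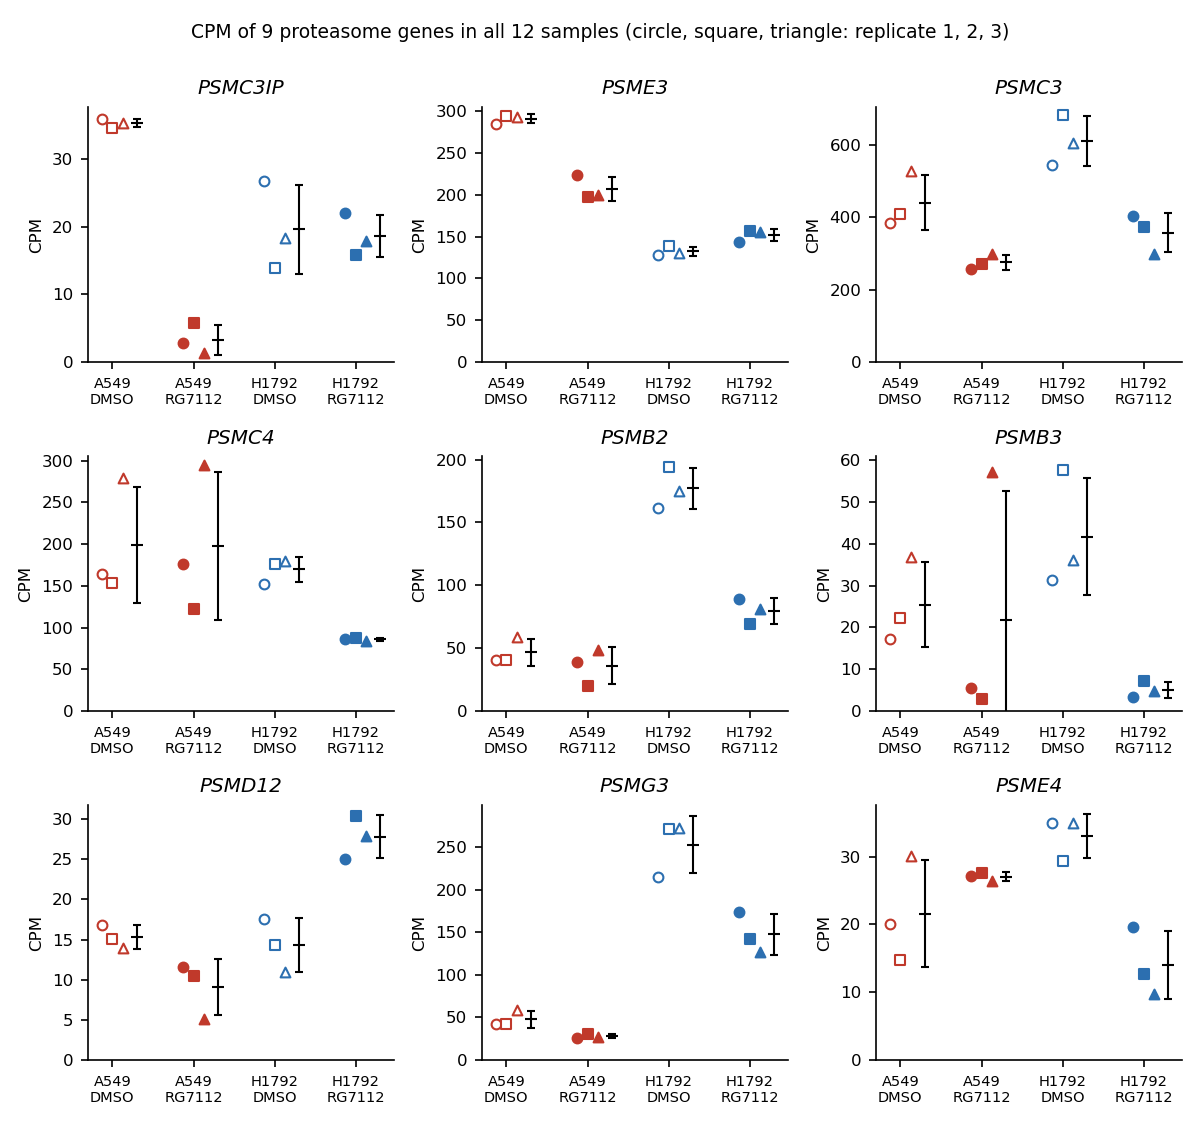
CPM of 9 members in all 12 samples, with A549 in red and H1792 in blue, open symbols for DMSO, filled symbols for RG7112, and black marks for the mean and 1 SD of 3 replicates. In the PSMB3 panel the SD bar of A549 with RG7112 is cut off at 0, since replicate 3 lies at 57.3 CPM and the others at 5.42 and 2.86 CPM.

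Fold changes in H1792 moved with the GC content of the transcript, over all genes and over the members. Spearman's rho of log2 fold change with GC content was -0.455 over the 42 members and -0.489 over 9165 genes in H1792, and 0.226 and 0.259 in A549. The members share a library and a base composition range, and these coefficients are descriptions. The median GC content was 52.3% in the 18 members that fell in H1792, 43.4% in the 3 that rose and 48.1% in the 21 that did not pass. After a loess correction for GC content, 18 members fell and 0 rose in edgeR (1 was higher at an unadjusted p under 0.05). The 3 members that had risen were then at 0.33 for PSMD12 (adjusted p = 0.243), 2.81 for PSMD5 (0.0524) and 0.05 for PSME3 (0.68). PSMB10 (-0.33, adjusted p = 0.216) and PSMG3 (-0.41, 0.0506), which had fallen, lost the call, and PSMA5 moved to -0.98 (0.00576). Among the named members, PSMF1 gained a call in H1792 (-0.42, 0.0137) and PSMG3 gained one in A549 (-0.94, 0.0395). The part of GC content in these results was not tested beyond that correction.

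**Figure D5:**
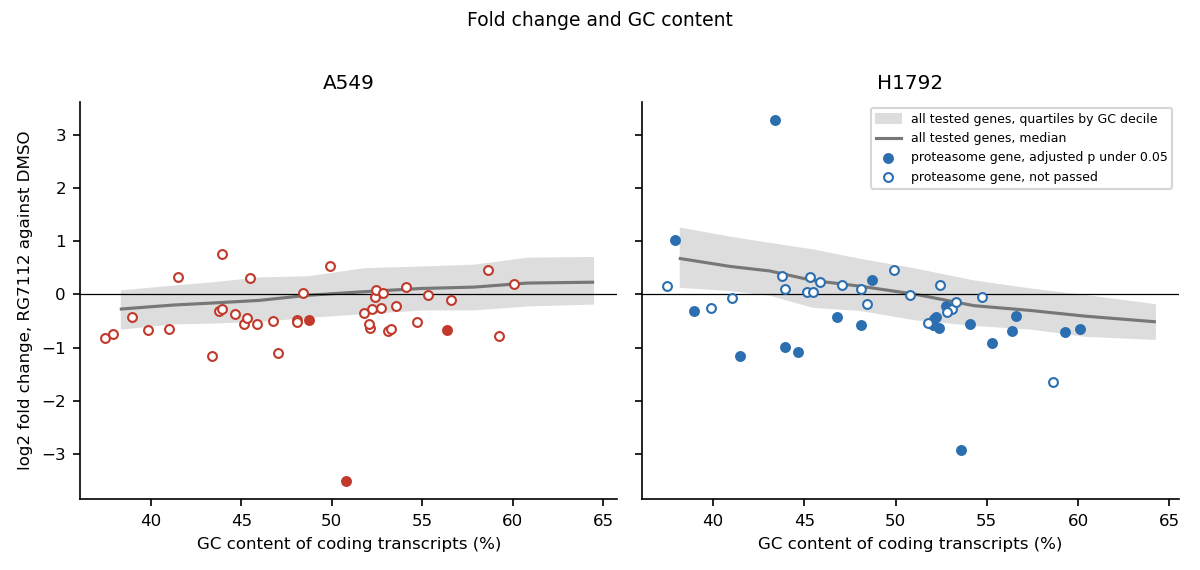
Log2 fold change against GC content of coding transcripts in A549 (left) and H1792 (right), with members as points, filled where the adjusted p was under 0.05, and the median and quartiles of all tested genes in 10 bins of GC content in grey. In H1792 the grey median runs from 0.675 in the lowest bin to -0.51 in the highest.

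Whether a member changed differently in the lines was tested as the change in A549 minus the change in H1792 over all 12 samples. In edgeR 7 of 42 members passed, 2 with a higher difference (4.76%) and 5 with a lower one (11.9%). Of all 11666 genes tested, 10.4% had a higher and 11.4% a lower difference. With library size alone, 1 was higher and 11 lower. PSMC3IP fell in A549 and not in H1792, with a difference of -3.44 ± 0.55 (adjusted p = 0.00235). PSME3 fell in A549 and rose in H1792 (-0.69 ± 0.13, adjusted p = 0.00449). PSMC3IP, PSME3 and PSMD12 (-1.70 ± 0.42, adjusted p = 0.0164) passed without each of the 12 samples in turn. With the GC correction the difference of PSMD12 was -0.81 and no longer passed (adjusted p = 0.0813), and neither did PSMG1 (-0.91, 0.0713) or PSME2 (0.60, 0.0891).

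The other 4 differences lost the call without at least 1 sample. PSMD5 differed by -4.35 ± 1.13 (adjusted p = 0.0212, and 0.0524 without A549 DMSO replicate 1), a fitted value that depends on H1792 samples at or below 3 counts. PSMG1 was at 13.1, 17.1 and 20.2 CPM in A549 with DMSO and at 8.68, 9.53 and 5.43 CPM with RG7112, against 33.8 to 39.2 CPM and 36.8 to 40.7 CPM in H1792. Its treatments separated in A549 and overlapped in H1792 (difference -1.21 ± 0.33, adjusted p = 0.0239, and 0.055 without H1792 DMSO replicate 2). PSME4 differed by 1.56 ± 0.42 (adjusted p = 0.0239, up to 0.0627 without 1 of 5 samples) and PSME2 by 0.77 ± 0.22 (adjusted p = 0.0331, up to 0.0915 without 1 of 7 samples). The element TGACNNNGC lay upstream of a RefSeq start in 5 of these 7 members, and in 7 of the other 30 tested members with a window. The 5 are the PSMD12, PSMD5, PSME2, PSME4 and PSMG1 sequences printed above, of which those of PSME2 and PSMG1 lie inside the GENCODE span of the gene. CCAAT lay there in 1 of the 7 and 12 of the 30. All these upstream counts leave out matches with fewer than 16 bases between them and the start or the far edge of the window. The other comparisons had TGACNNNGC in 0 of 3 members that passed and 12 of 34 others (A549), in 7 of 20 and 5 of 17 (H1792), and in 3 of 16 and 9 of 21 (untreated lines). These shares were not tested.

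Over both lines, 21 members were lower with RG7112 in each, 3 were higher in each, 11 were lower in A549 and higher in H1792, and 7 the reverse. The members that passed in both lines were PSMC3, which fell in each, and PSME3, which had opposite directions. The large sets of other complexes gave a scale for these counts. Of 73 ribosomal protein genes, 2 fell in A549 (median -0.23) and 57 fell in H1792 (median -0.56). Of 8 CCT chaperonin genes, 2 fell in A549 (median -0.795), and 4 fell and 1 rose in H1792 (median -0.95). Of all genes tested, 4.03% fell in A549 and 16.5% in H1792. The members' median in H1792, -0.27, lay between that of the ribosomal proteins and that of all genes.

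Genes that work with the proteasome without being members were read from fixed lists. Of proteasome parts and partners, 0 of 15 passed in A549 by edgeR (4 lower at an unadjusted p under 0.05, and 2 lower by DESeq2), while in H1792 6 of 16 rose and 3 fell. Of all genes tested in H1792, 17.7% rose and 16.5% fell. SEM1, the smallest lid protein, was at -0.75 ± 0.20 (adjusted p = 0.0661) in A549. The deubiquitinase UCHL5 was at -1.04 ± 0.28 (adjusted p = 0.0694) and the thioredoxin-like TXNL1 at -0.45 ± 0.17 (adjusted p = 0.164). UBQLN1, which shuttles ubiquitinated proteins to the proteasome, was at 84.9, 63.7 and 85.0 CPM with DMSO and at 174, 208 and 200.4 CPM with RG7112 in H1792. All treated samples were above all untreated ones (1.40 ± 0.15, adjusted p = 0.00309). SEM1 in H1792 was at 197, 227 and 215 CPM with DMSO and at 146, 136 and 134 CPM with RG7112, a fall without overlap (-0.54 ± 0.08, adjusted p = 0.00454).

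Of the NFE2L1 pathway, 0 of 7 genes passed in A549 by edgeR, DESeq2 or limma-trend (0 at an unadjusted p under 0.05). In H1792 3 of 6 rose and 1 fell, beside 17.7% and 16.5% of all genes tested. MAFK, a small MAF partner of NFE2L1, was at 10.2, 12.9 and 8.28 CPM with DMSO and at 27.9, 38.4 and 30.3 CPM with RG7112 (1.68 ± 0.23, adjusted p = 0.00429). NFE2L1 itself was at 775, 861 and 793 CPM and then at 636, 572 and 652 CPM in H1792. Of the ubiquitin and activating enzyme genes, 0 of 3 passed in A549 by edgeR, DESeq2 or limma-trend (0 at an unadjusted p under 0.05). In H1792 2 of 3 fell, beside 16.5% of all genes tested.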

How the data were processed

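The 12 samples of poly-A RNA fell into 4 groups of 3 replicates, by cell line and treatment. The authors pseudoaligned the reads with kallisto 0.45.0 to the Ensembl GRCh38 transcriptome and added the estimates up to genes, and the deposited values are whole-number estimated counts, or expected counts, which were not scaled between samples. The labels give RG7112 at 1 μM, whereas the column names give a lower dose, and the labels were followed. The labels and the study's methods name different sequencers and read lengths. The sentence of the study that introduces the RNA-seq gives the p53 states the other way round, and the labels were followed.

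Symbols, lengths and GC content came from GENCODE v29, promoters from RefSeq. Members and lists were chosen with earlier results of these data known. A few genes of the lists are not reported here and were left out of the list counts. R 4.3.3, edgeR 4.0.16 (filterByExpr with minimum count 10 and minimum total 15, TMM, robust quasi-likelihood test, Benjamini-Hochberg adjustment over all genes tested), limma 3.58.1 and DESeq2 1.42.0 were used, and the procedure was tested on simulated data. Each line was tested on its own 6 samples. The difference of the changes and that of the untreated lines were tested over all 12 samples. Genes passed with an adjusted p under 0.05, and errors are SEs for log2 values and SDs for CPM. All adjusted p in the text are from edgeR unless another tool is named. With 3 samples in each group, 0.1 is the smallest p of an exact permutation test, so none is quoted. Named genes were those meeting the study's DEG rule, the smallest p in each class, the catalytic and inducible beta subunits and the activators, up to 10 passing members for the difference of changes and the 5 largest differences between untreated lines. Others named, such as PSMA5, PSMD2, PSMD7, PSMD11, PSME3 and PSMG1 between the untreated lines, PSMC1, PSMC3, PSMC5, PSMD2, PSMD3, PSMD4, PSMD7 and PSMD8 in H1792 and NFE2L1, were chosen after their values were seen. Alternatives were another tool, scaling or filter, limma-trend, the replicate number as a block, a GC correction, stricter thresholds, a fit of all 12 samples and leaving out samples.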

Additional observations from a re-analysis of the deposited data

Results flagged for a closer look

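The change with RG7112 differed between A549 and H1792 for 7 members, PSMC3IP among them, when the difference itself was tested in edgeR over all 12 samples. Of the 42 tested members, 4.76% had a higher and 11.9% a lower difference, beside 10.4% and 11.4% of all 11666 genes tested. As the change in A549 minus the change in H1792 (log2), the differences were -3.44 for PSMC3IP, -0.69 for PSME3, -1.70 for PSMD12, -4.35 for PSMD5, 1.56 for PSME4, -1.21 for PSMG1 and 0.77 for PSME2. PSME3 is the member that passed in each line with opposite directions. PSMC3IP, PSME3 and PSMD12 kept their calls without each sample in turn, but PSMD12 lost its call with the GC correction (-0.81, adjusted p = 0.0813), and PSMD5 rests on H1792 samples at or below 3 counts. Groups of 3 samples were too small for a test of single outlying samples.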

How the results depend on the processing

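In A549, where 3 members passed, 6 passed with DESeq2, 10 with all 12 samples in one fit, 5 with both A549 samples numbered 3 left out, 1 at an adjusted p under 0.01, 1 under the DEG rule, and 1 to 2 without 1 sample. In H1792, where 21 passed, 7 passed at an adjusted p under 0.01, 5 under the DEG rule, 8 to 22 without 1 sample and 0 in edgeR with both H1792 samples numbered 3 left out (15 at an unadjusted p under 0.05, DESeq2 not run on those samples). For the difference of changes, where 7 passed, 12 passed with library size only, 4 with the GC correction, 2 at an adjusted p under 0.01 and 4 to 11 without 1 sample. Between the untreated lines, where 18 passed, every alternative gave 12 to 23 members, within 1.5 times. Deviations from the group means of samples with the same replicate number had r of 0.115, 0.0609 and 0.273 in A549 and of -0.0238, -0.00181 and 0.00346 in H1792, not over 0.1 in every pair, so the numbers were not taken as pairs. In A549 and H1792 not every sample correlated best with its own number. With the replicate block, 2 members passed in A549, 10 in H1792, 7 for the difference of changes and 17 between the untreated lines, and the GC correction with the replicate block gave 7 in H1792. Of the named members' values under the alternatives, 14 of 286 in A549, 92 of 338 in H1792, 24 of 152 for the difference of changes and 0 of 109 between the untreated lines lost the call, and 8 in A549 and 1 in H1792 gained one. No value that passed under either setting changed sign, whereas 11 values in A549 and 17 in H1792 that passed under neither did. The cause of these changes was not tested. Depth limits the low members, since 3 counts stand for 0.465 to 1.43 CPM.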
